A study of Mus musculus with 6 samples.

Results

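Autosomal gene deserts are described here in the mouse muscle line C2C12: 500 kb bins in which no protein-coding gene starts. A bin counted as a desert when it had data in all 3 conditions, held no transcription start site of a protein-coding gene (GENCODE annotation of mm10, 1 start site per gene) and lay neither before 13 Mb nor within 10 Mb of the last bin of its chromosome. The rule used the annotation and the presence of data, not the measured contacts. It gave 986 deserts among 3981 autosomal bins of the same window, which is 24.8% of them, and among 5455 bins in the whole matrices. Per autosome they numbered from 13 on chromosome 19 to 94 on chromosome 1. Another 162 autosomal bins with data and without a start site lay too near a chromosome end.

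Interphase chromatin separates into an A compartment, which is rich in active genes and replicates early, and a B compartment, which is poor in genes, replicates late and tends to lie at the nuclear lamina. Gene deserts are long stretches between genes. Many belong to B, and some hold the distant enhancers of developmental regulators that sit at their edges, such as those on either side of the *Hoxd* genes in limb development. A desert by this rule can still contain introns of a long gene that starts elsewhere, or non-coding genes. A gene named on a side of a desert is the one with the nearest start site there. Its body can still reach into the desert.

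C2C12 is an established line of myoblasts that fuse into multinucleated myotubes when serum is lowered. Hi-C with the restriction enzyme HindIII was carried out on 2 biological replicates each of proliferating myoblasts (day 0, no drug), myotubes (day 3 of differentiation, no drug) and AraC-treated myotubes (day 7, with 10 µg/ml AraC from day 3, also written as after AraC). AraC (cytosine arabinoside) blocks DNA synthesis and was used to remove myoblasts that had not differentiated, so the myotubes of day 3 still contained such cells, and drug and time cannot be told apart in the last condition. Each deposited matrix pooled both replicates of a condition and gives the correlation coefficient of the normalised interaction profiles of each pair of bins. There was thus 1 value per condition, no test between conditions was possible, and the number of read pairs behind a bin is unknown from these values.

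Each contact of a desert came from a fragment end at a HindIII site, and deserts held a median of 168 such sites per bin, against 169 in bins with 1 start site and 142.5 in bins with 10 or more. The site nearest the middle of 4 deserts that recur below is shown in 96 bases of mm10, plus strand, with the HindIII recognition sequence in capitals. They are the desert whose lowest scaled PC1 (explained below) over the conditions was highest (beside *Dusp10*, chr1:183748809-183748904), that whose highest value was lowest (beside *Wwc1*, chr11:36251745-36251840), the largest rise from myoblasts to myotubes (inside *Cdh13*, chr8:118752303-118752398) and a bin of the longest run of deserts (between *Pcdh20* and *Pcdh9*, chr14:91252732-91252827).
Dusp10 desert: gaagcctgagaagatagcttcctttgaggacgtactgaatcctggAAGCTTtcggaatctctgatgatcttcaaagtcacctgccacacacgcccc
Wwc1 desert: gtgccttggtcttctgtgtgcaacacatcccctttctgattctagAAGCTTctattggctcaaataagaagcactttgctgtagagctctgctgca
Cdh13 desert: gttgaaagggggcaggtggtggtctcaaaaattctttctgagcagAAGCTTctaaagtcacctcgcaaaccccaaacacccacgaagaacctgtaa
Pcdh20 desert: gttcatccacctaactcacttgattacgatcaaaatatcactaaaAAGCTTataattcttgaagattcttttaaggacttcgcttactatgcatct

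Deserts lay mostly in B, in every condition. The compartment was read from PC1, the first principal component of the within-chromosome coefficients, signed so that positive values (A) go with start sites. This sign is a single choice per chromosome and condition. As deserts have no start sites, it partly sets the direction of the difference between deserts and other bins. A sign set by GC content gave the same shares of deserts in B. In myoblasts 852 of 986 deserts (86.4%, exact binomial 95% interval 84.1 to 88.5) were in B, where 61.4% of all window bins were. In myotubes the count was 867 (87.9%, 85.7 to 89.9), beside 63.4% of all window bins. In AraC-treated myotubes it was 877 (88.9%, 86.8 to 90.8), beside 64.9%. These intervals cover counting error only, and neighbouring bins are not independent. The order of the conditions was the same for deserts and for all window bins, with the lowest share in myoblasts.

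The share in B was lower with each step in the number of start sites. Bins with 1 start site, the class just outside the rule, were in B at 75.1% in myoblasts, 77.7% in myotubes and 80.2% after AraC. Bins with 10 or more were at 32.1%, 34.2% and 34.6%. Divided by its SD over the window bins of a condition, PC1 of deserts had a median of -0.605 in myoblasts (quartiles -0.782 and -0.368), -0.610 in myotubes (-0.770 and -0.396) and -0.595 after AraC (-0.755 and -0.400). In bins with 1 start site these medians were -0.523, -0.556 and -0.541, so deserts and such bins overlapped widely in level and differed more in their upper quartiles.

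**Figure D1:**
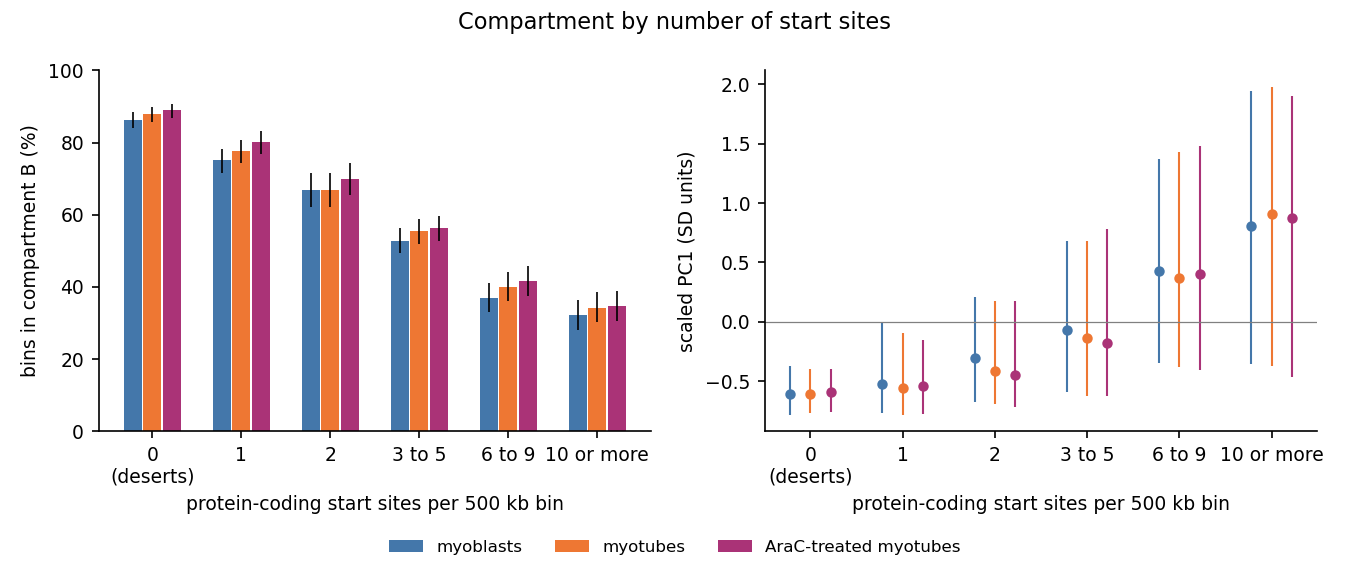
Bins by the number of protein-coding start sites they hold (horizontal axes) in the 3 conditions (colours). The left panel gives the share in B in percent with exact binomial 95% intervals, and the right panel the median scaled PC1 in SD units with bars from the lower to the upper quartile. Deserts had the highest share in B, 86.4% to 88.9%.

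The same division was seen in coefficients between chromosomes, which compare interaction profiles and are not counts of contacts. The mean coefficient of a desert with gene-dense bins (10 or more start sites) of other autosomes, minus its mean with deserts of other autosomes, was below 0 in 890 deserts in myoblasts (90.3%, beside 63.2% of all window bins), 905 in myotubes (91.8%, beside 67.6%) and 900 after AraC (91.3%, beside 67.3%). Its median was -0.852, -1.11 and -1.03 in units of the SD of all coefficients between autosomes in that condition. In bins with 1 start site 78.4%, 82.8% and 82.9% were below 0, with medians of -0.774, -1.06 and -0.983. Gene-dense bins had medians of 1.31, 1.13 and 1.22. Over the 986 deserts this preference and scaled PC1 correlated at r = 0.920, 0.935 and 0.926, both being read from the same matrices.

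Pairs of deserts on different autosomes had a mean coefficient of 0.0149 in myoblasts, 0.0435 in myotubes and 0.0305 after AraC, over 457029 pairs. The SD of all coefficients between autosomes also differed, at 0.0436, 0.0864 and 0.0710, and in these units the means were 0.341, 0.503 and 0.429. Deserts and gene-dense bins gave -0.364, -0.421 and -0.421. Pairs of gene-dense bins gave 0.921, 0.607 and 0.564, but as plain coefficients 0.0402, 0.0524 and 0.0401, so the order of the conditions for these pairs depended on the unit. For pairs of deserts it was the same in both units. Deserts and bins with 1 start site gave 0.262, 0.389 and 0.320 SD units. Whether a difference of this size lies beyond the spread of replicates was not tested.

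**Figure D2:**
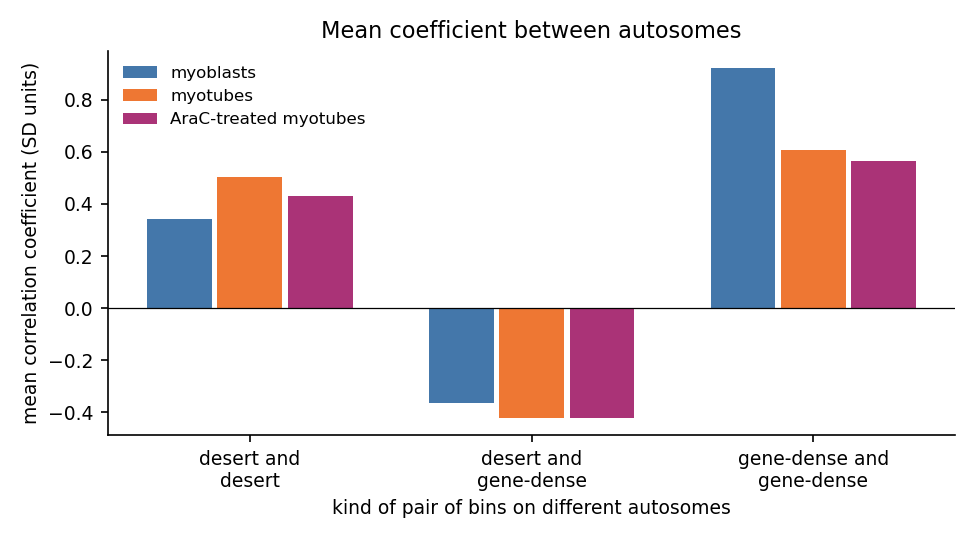
Mean correlation coefficient of pairs of bins on different autosomes (vertical axis, in units of the SD of all such coefficients in the condition) for 3 kinds of pair (horizontal axis) and 3 conditions (colours). Pairs of deserts lie above 0, at 0.341 to 0.503, and pairs of a desert and a gene-dense bin below it.

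The 986 deserts formed 503 runs of consecutive bins, of which 283 were single bins and 38 had 5 bins or more. Longer runs were in B more often: in myoblasts 77.0% of single deserts (71.7 to 81.8) and 94.0% of deserts in runs of 5 or more (90.2 to 96.7) were in B. In AraC-treated myotubes these shares were 78.4% and 97.4%. Within stretches without start sites, 83.3% of the outermost bins were in B in myoblasts, 92.9% of the next and 98.4% (63 of 64) of the third, while the median scaled PC1 moved little, from -0.594 to -0.641 and -0.648. All 21 deserts that lay 4 bins or more inside were in B in all 3 conditions.

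Most of the change in the median lay outside the deserts. The mean still fell inside them in myoblasts, from -0.488 in the outermost bins to -0.568 in the next and -0.615 in the third. The bin with a start site directly beside a desert had a median scaled PC1 of -0.495 in myoblasts, the next -0.164, the third 0.108, and bins 4 or more away 0.503. In myotubes the order was the same (-0.523, -0.221, 0.0200 and 0.419), as it was in AraC-treated myotubes (-0.544, -0.271, -0.0661 and 0.502). The number of start sites rose along with it, from a median of 2 in the adjoining bin to 6 at 4 bins or more.

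**Figure D3:**
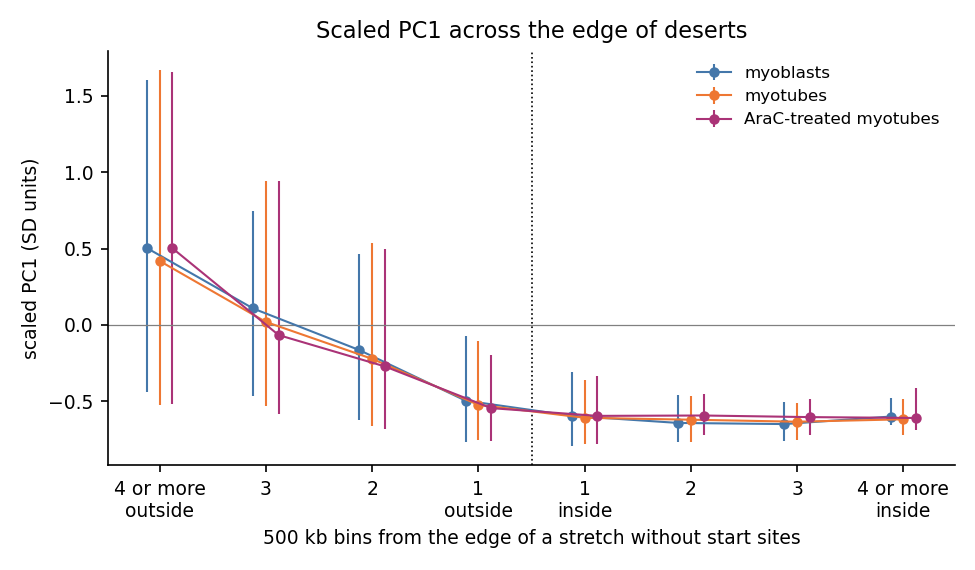
Median scaled PC1 in SD units (vertical axis) by distance in 500 kb bins from the edge of a stretch without start sites (horizontal axis; the dotted line is the edge), with bars from the lower to the upper quartile and 1 colour per condition. The median is nearly flat inside deserts, near -0.6, and rises over the bins outside. The upper quartile is higher in the outermost bins of deserts than farther inside.

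The longest run held 10 deserts (5 Mb, chr14:88500001-93500000) between *Pcdh20* and *Pcdh9*, which encode protocadherins, adhesion proteins of the nervous system. All 10 bins were in B in each condition, with median scaled PC1 of -0.319, -0.249 and -0.199 in myoblasts, myotubes and AraC-treated myotubes. A run of 9 deserts on chromosome 1 between *Cntnap5b* and *Cdh20* lay lower, at -0.908, -0.787 and -0.775, again with every bin in B. Runs of 8 on chromosome 14 (*Olfm4* to *Pcdh17*) and on chromosome 18 (*Celf4* to *Pik3c3*) were also wholly in B. The run of 9 on chromosome 8 between *Tenm3*, a teneurin of synaptic adhesion, and *Aga* was the exception among the 5 longest, with 8, 7 and 9 of its bins in B. Its first desert, beside *Tenm3*, was at 0.406 in myoblasts, 0.388 in myotubes and -0.107 after AraC.

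Over the 3 conditions, 833 deserts (84.5%) were in B throughout, beside 57.8% of all window bins. 88 deserts (8.92%) were in A throughout, beside 31.6% of all window bins, and 65 (6.59%) changed sign between some pair of conditions, beside 10.6% of all window bins. Deserts in A throughout were richer in GC, with a median of 40.6% (quartiles 38.7 and 42.8) against 37.8% (36.8 and 39.2) in deserts in B throughout. They held less repeat-masked sequence, 28.9% against 39.6%, and a start site of a long non-coding RNA gene in 71 of 88 (80.7%) against 372 of 833 (44.7%). The number of HindIII sites was the same in both, with a median of 168.

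Long non-coding genes started in a smaller share of deserts than of bins with start sites. 480 deserts (48.7%) held the start of at least 1, 907 such genes in all, beside 64.5% of bins with 1 start site and 86.1% of bins with 10 or more. The classes counted included antisense, sense-intronic and others defined by position relative to another gene. How far this sets the contrast was not tested. The share of deserts in A was higher where there were more long non-coding genes: in myoblasts it was 7.71% of 506 deserts with none, 14.6% of 260 with 1, 24.8% of 117 with 2 and 27.2% of 103 with 3 or more. In AraC-treated myotubes the shares were 4.94%, 12.3%, 19.7% and 28.2%. It also differed by GC content. With deserts ranked into 5 classes of GC, 5.56% of the lowest class (35.0% to 36.7% GC) and 29.4% of the highest (40.4% to 49.4%) were in A in myoblasts. As correlations over 986 deserts both relations were weak: r between scaled PC1 and the number of long non-coding genes was 0.188 in myoblasts, and with GC content 0.0842 (Spearman 0.0119).

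Of the 986 deserts, 689 overlapped no protein-coding gene body, and 110 lay wholly within a single gene. In myoblasts 88.8% of the former (86.2 to 91.1) and 80.0% of the latter (71.3 to 87.0) were in B. In myotubes these shares were 90.6% and 79.1%, and in AraC-treated myotubes 91.4% and 80.9%.

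Genes that covered a whole desert numbered 86. The list of neural adhesion and synapse genes gave 24 of its 38 members, over 43 deserts, of which 40 were in B in myoblasts, 38 in myotubes and 39 after AraC, beside 80.0%, 79.1% and 80.9% of all deserts inside a single gene. *Lsamp*, which encodes an adhesion protein of limbic neurons, covered 4 deserts at -0.511 to -0.570 in myoblasts and -0.639 to -0.723 in AraC-treated myotubes. All 3 deserts of *Csmd1* and all 3 of *Lrp1b*, a large receptor of the LDL receptor family, were in B in each condition. *Dlg2*, which encodes a scaffold protein of synapses, differed. One of its deserts was at -0.461 in myoblasts, 0.114 in myotubes and 0.365 after AraC, and its neighbour at -0.334, 0.121 and 0.353.

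The muscle list gave 11 of its 45 members over 13 deserts, of which 7, 7 and 8 were in B in the 3 conditions, beside the same 80.0%, 79.1% and 80.9%. *Lama2*, the laminin chain of the muscle basement membrane, held a desert in A at 0.815 in myoblasts, 0.895 in myotubes and 0.897 after AraC. *Ank3*, an ankyrin that anchors membrane proteins, was close to it, at 0.750, 0.845 and 0.966. The deserts in *Sgcd*, the delta-sarcoglycan of the dystrophin complex, at -1.32, -1.38 and -1.50, and in *Sox6*, a repressor of slow fibre genes, at -0.390, -0.527 and -0.536, were in B throughout. *Sgcz* was in both lists, which were chosen with earlier results of these data known. The muscle share rests on 13 deserts, including those of *Cdh13* and *Pde4d* described below, so it is a description only.

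By their lowest scaled PC1 over the 3 conditions, the 5 deserts highest in A were single bins. The bin between *Hhipl2* and *Dusp10*, a phosphatase that acts on the stress kinases p38 and JNK, had scaled PC1 of 2.30 in myoblasts, 2.41 in myotubes and 2.31 after AraC, with the start of *Dusp10* 13.3 kb away. The bin between *Rad51b* and *Zfp36l1*, which encodes an mRNA decay factor, was at 1.88, 2.16 and 2.13. A bin inside *Thsd4* was at 1.87, 1.89 and 1.94. A bin beside *Klf4*, a zinc finger transcription factor, was at 1.84, 1.70 and 1.77, and a bin beside *Tns1*, a focal adhesion protein, at 1.46, 1.59 and 1.66. The first 3 of these were also the members of the 3 desert pairs on different autosomes with the highest mean coefficient. The coefficient of the *Dusp10* and *Zfp36l1* deserts was 0.181 in myoblasts, 0.389 in myotubes and 0.312 after AraC. It was 0.183, 0.370 and 0.324 for the *Thsd4* and *Zfp36l1* deserts, and 0.149, 0.345 and 0.280 for those of *Dusp10* and *Thsd4*. These are plain coefficients. The SD of all coefficients between autosomes also differed, at 0.0436, 0.0864 and 0.0710, so they do not compare the conditions on a common scale.

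By their highest scaled PC1 over the 3 conditions, the 3 lowest deserts were on chromosome 11, where every desert was in B in each condition. PC1 there also followed position along the chromosome, with r = 0.515, 0.535 and 0.574, beside 0.602, 0.599 and 0.605 with start sites. The bin between the starts of *Wwc1* and *Tenm2*, with 98.7% of its length in protein-coding gene bodies, was at -1.88, -1.92 and -1.999. A bin inside *Asic2*, an acid-sensing channel of neurons, was at -1.60, -1.87 and -1.65. A bin beside *Cobl*, an actin nucleator, was at -1.60, -1.69 and -1.73. The scale of PC1 differs between chromosomes: with PC1 divided by the SD of its own chromosome, 0 of these 3 were among the 3 lowest, and 3 of the 5 highest were among the 5 highest. Chromosome 13 had the lowest share of deserts in B, at 62.8% in myoblasts and 69.8% in both other conditions. There PC1 followed start sites least, with r = 0.122, 0.0569 and 0.0535 over its bins. As these r set the sign of PC1, A and B rest on the weakest relation on this chromosome. It holds 12 of the deserts in A throughout, and the deserts named below at *Msx2*, *Pde4d*, *Slc30a5*, *Sugct* and *Sox4*.

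Between conditions most deserts changed little in scaled PC1. The median change was -0.00432 (quartiles -0.101 and 0.0959) from myoblasts to myotubes. It was 0.00600 (-0.126 and 0.125) from myoblasts to AraC-treated myotubes and 0.00698 (-0.0535 and 0.0656) from myotubes to AraC-treated myotubes. The profile correlation, Pearson r of a bin's coefficients along its chromosome in 2 conditions, had a median of 0.888, 0.854 and 0.947.

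From myoblasts to myotubes 23 deserts went from A to B (2.33%, 1.48 to 3.48), beside 4.4% of all window bins, and 8 from B to A (0.811%), beside 2.34%. From myoblasts to AraC-treated myotubes the counts were 42 (4.26%, beside 6.43%) and 17 (1.72%, beside 2.91%). From myotubes to AraC-treated myotubes they were 25 (2.54%, beside 3.27%) and 15 (1.52%, beside 1.81%). The first 2 pairs of conditions share the myoblasts and the last 2 the AraC-treated myotubes. With a component from other autosomes, the counts were 16 and 14 in the first pair, 24 and 25 in the second and 13 and 16 in the third. On that measure the excess of A to B was smaller in the first pair and absent in the last 2.

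A rise of over 0.5 in scaled PC1 was seen in 10 deserts from myoblasts to myotubes (1.01%, beside 2.56% of all window bins), in 33 from myoblasts to AraC-treated myotubes (3.35%, beside 5.68%) and in 10 from myotubes to AraC-treated myotubes (1.01%, beside 1.78%). Falls of that size were seen in 3 (0.304%, beside 2.31%), 23 (2.33%, beside 4.97%) and 0 (beside 0.201%). A profile correlation below 0 was seen in 13 deserts (1.32%, beside 3.27%), 38 (3.85%, beside 5.58%) and 17 (1.72%, beside 1.08%).

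**Figure D4:**
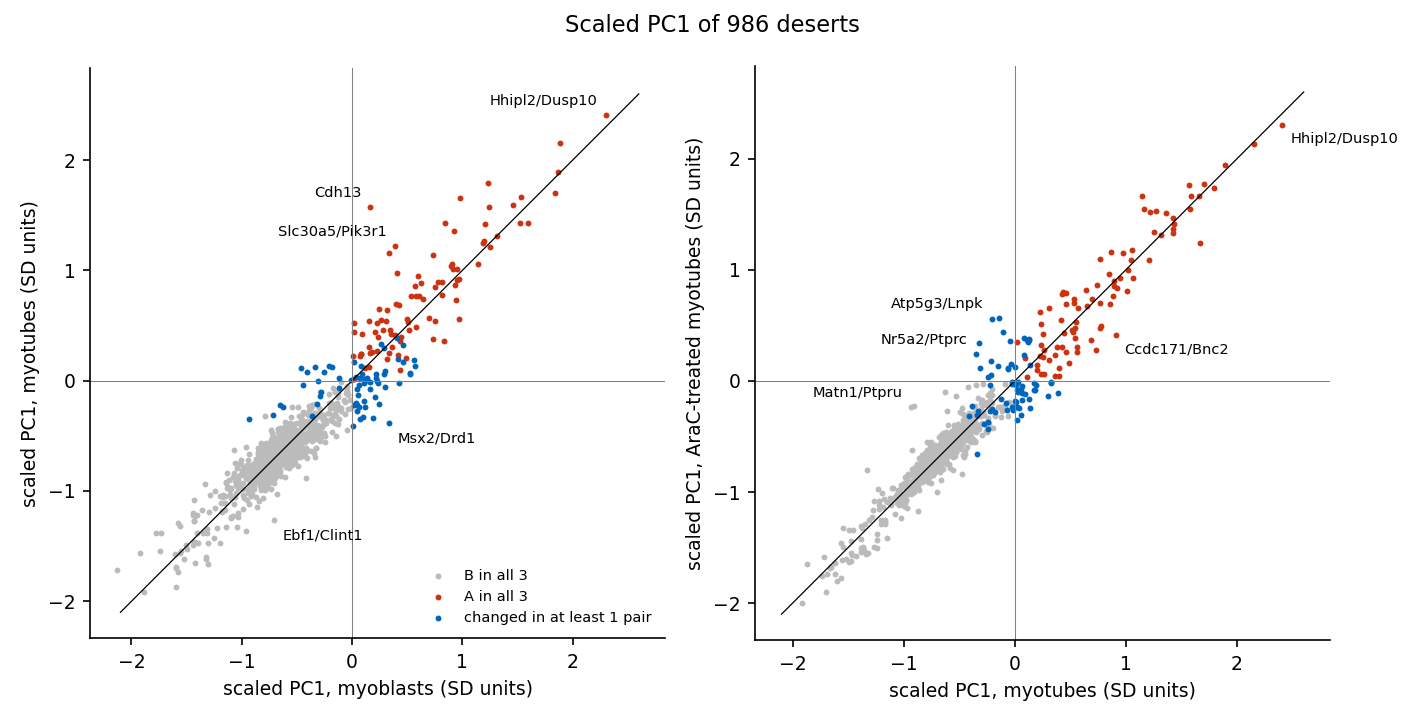
Scaled PC1 of each desert in SD units in myoblasts (horizontal) and myotubes (vertical) on the left, and in myotubes and AraC-treated myotubes on the right. Each point is a desert, coloured by its compartment over the 3 conditions, the diagonal marks equal values, and labels name flanking or covering genes. Most deserts lie below 0 on both axes, and the *Cdh13* desert lies farthest above the diagonal on the left.

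The largest rise was inside *Cdh13*, which encodes T-cadherin, an adhesion protein that binds adiponectin. This desert (chr8:118500001-119000000) was at 0.165 in myoblasts, 1.57 in myotubes and 1.76 after AraC. Its preference between chromosomes went from 0.0957 to 1.93 and 2.19 SD units. The rise extended beyond the desert: the adjoining bin with the *Cdh13* start went from 0.547 to 1.71 and 1.78, and the bin on the other side, with *Hsbp1*, from 0.318 to 1.74 and 1.93.

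The desert between *Slc30a5* and *Pik3r1*, the regulatory subunit of PI3 kinase, went from 0.391 to 1.22 and 1.52. The bins on its sides also rose, from 0.560 to 1.05 and 1.36 and from 0.788 to 1.45 and 1.70. A desert wholly inside *Gm37240* went from 0.336 to 1.16 and 1.54. The nearest start sites on its sides were those of *Fbxw7*, a ubiquitin ligase subunit that targets cyclin E, and *Gatb*. Both deserts were thus in A throughout. The desert beside *Nr5a2*, the nuclear receptor LRH-1, went from -0.932 to -0.351 and 0.240 and was among the 3 largest rises from myoblasts to AraC-treated myotubes.

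The *Nr5a2* desert formed a run with the next bin (chr1:137500001-138000000), which holds the genes of miR-181a-1 and miR-181b-1. The miR-181 family is known to be induced in muscle differentiation. This bin went from -0.404 in myoblasts to 0.0807 in myotubes and 0.383 after AraC, and it was named after its values were seen. Another desert with known miRNA genes, also named after its values were seen, lies on chromosome 9 (chr9:41500001-42000000) and holds miR-100, let-7a-2 and miR-125b-1. It moved the other way, from 0.966 to 0.560 and 0.257, and stayed in A. The mature sequences are those of RefSeq (GRCm38), with the seed (bases 2 to 8) in capitals, to show which miRNAs of these deserts share a seed.
miR-181a-5p: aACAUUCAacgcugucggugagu
miR-181b-5p: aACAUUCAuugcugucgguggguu
miR-100-5p: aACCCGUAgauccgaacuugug
miR-125b-5p: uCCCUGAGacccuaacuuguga
miR-181a-5p and miR-181b-5p share the seed ACAUUCA, while the others printed each have their own. In all, 132 deserts held 163 annotated miRNA genes, of which 43 were matched in RefSeq by symbol and chromosome. Of those 132 deserts 114 (86.4%) were in B in myoblasts and 117 (88.6%) in both other conditions, close to the shares of all deserts.

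The largest fall from myoblasts to myotubes was between *Msx2*, a homeobox transcription factor, and *Drd1*. This desert (chr13:53500001-54000000) was at 0.339 in myoblasts, -0.387 in myotubes and -0.226 after AraC. It also had the lowest profile correlation of that pair, r = -0.434, and its preference between chromosomes went from 0.578 to -0.796 SD units. The adjoining bin with *Msx2* went from 0.691 to 0.146 and that with *Drd1* from 0.579 to 0.0567, both remaining in A. The desert between *Ebf1*, an early B cell and mesenchymal transcription factor, and *Clint1* went from -0.706 to -1.27 and -1.49, and that between *Ripk2* and *Mmp16* from 0.193 to -0.341 and -0.308. The bins on the sides of the *Ebf1* desert also fell, from -0.767 to -1.26 and -1.46 and from -1.09 to -1.45 and -1.62. From myoblasts to AraC-treated myotubes the deserts between *Gk2* and *Antxr2* (0.836 to 0.0452) and between *Rgs18* and *Brinp3* (0.567 to -0.162) fell most beside that of *Ebf1*, with -0.791 and -0.729.

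The lowest profile correlation from myoblasts to AraC-treated myotubes, r = -0.733, was inside *Pde4d*, a phosphodiesterase that degrades cAMP. That desert, which also had r = -0.314 from myoblasts to myotubes, was at 0.526 in myoblasts, 0.0660 in myotubes and -0.172 after AraC. The desert beside *Tmem232* followed with r = -0.588, at -0.657, -0.218 and 0.178, and its r from myotubes to AraC-treated myotubes was -0.650. The desert between *A1bg*, 77.0 kb away, and *Myc*, the growth regulator, 485 kb away, had r = -0.526, at -0.253, 0.0800 and 0.232. From myotubes to AraC-treated myotubes a desert inside *Sugct* (r = -0.389) was also low. So was one with the start of *Nrxn3* on its left and 67.0% of its length in protein-coding gene bodies (r = -0.360). From myoblasts to myotubes one beside *Gfra2*, a receptor for neurturin, was low (r = -0.257).

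The largest rise from myotubes to AraC-treated myotubes was between *Atp5g3* and *Lnpk* (chr2:74000001-74500000), directly before the bin of the *Hoxd* genes. It was at -0.313 in myoblasts, -0.207 in myotubes and 0.561 after AraC, and its profile correlation was r = 0.738 between the first pair of conditions and -0.202 between the last. The desert on the other side of the *Hoxd* bin (chr2:75000001-75500000) went from -0.364 and -0.323 to 0.344, and the *Hoxd* bin itself from -0.165 and -0.00164 to 0.655. The second desert, the *Hoxd* bin, the *Ttn* bin below and the bins described beside other named deserts were chosen after their values were seen. About 2 Mb on, the bin with *Ttn*, the giant sarcomere protein titin, went from -0.151 in myoblasts to 1.43 in myotubes and 1.61 after AraC, so its rise lay between the first pair of conditions and that of the *Hoxd* deserts between the last.

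**Figure D5:**
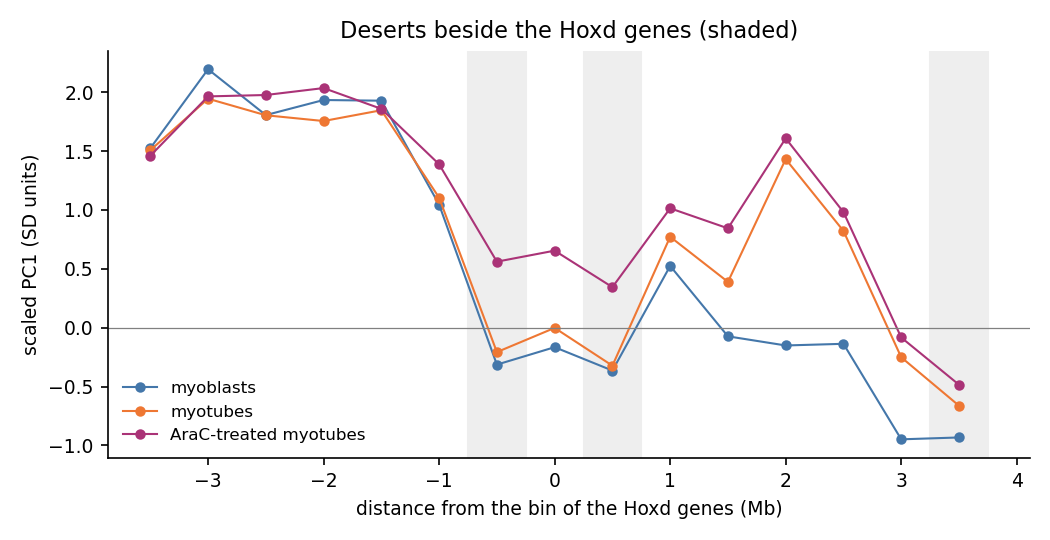
Scaled PC1 in SD units (vertical axis) of 500 kb bins by their distance in Mb from the bin of the *Hoxd* genes (horizontal axis), with 1 line per condition and deserts shaded. The deserts on both sides of the *Hoxd* bin are below 0 in myoblasts and myotubes and above 0 in AraC-treated myotubes.

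The deserts between *Fut8* and *Gm6657* (-0.288, -0.139 and 0.568) and between *Matn1* and *Ptpru* (-1.34, -0.933 and -0.235) rose by 0.707 and 0.698 over the same step. The bins beside the *Fut8* desert also rose over that step, from 0.523 to 0.976 and from 0.324 to 0.959. The largest falls over it were smaller: the deserts beside *Bnc2* (-0.499), *Tenm3* (-0.495) and *Nyap2* (-0.452) fell by less than the 0.5 used above. The ranks depend on the scale. With PC1 divided by the SD of its own chromosome, 3, 2 and 2 of the 3 largest rises in the pairs myoblasts to myotubes, myoblasts to AraC-treated myotubes and myotubes to AraC-treated myotubes were again among the 3 largest, and 1, 0 and 1 of the 3 falls. Without scaling these counts were 1, 2 and 2 for the rises and 0, 1 and 2 for the falls.

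From a list also chosen with earlier results of these data known, 33 of 68 developmental regulators were nearest on some side of a desert. They flanked 70 deserts. Of these deserts 55 (78.6%) were in B throughout, beside 84.5% of all deserts, and 10 (14.3%) in A throughout, beside 8.92%. In the 3 pairs of conditions 4 (5.71%), 5 (7.14%) and 1 (1.43%) changed compartment, beside 3.14%, 5.98% and 4.06% of all deserts. All 7 deserts beside *Cdh2* (N-cadherin) and all 3 beside *Bcl11a* were in B in each condition, with *Bcl11a* lowest at medians of -1.56, -1.56 and -1.63. Deserts in A throughout included those beside *Myc* (3 of 4), *Nfib* (both of 2), and *Sox4* and *Tbx3* (1 of 1). The desert beside *Twist1*, an inhibitor of myogenic differentiation, went from 0.159 to -0.0729 and -0.264. Over the 6 deserts that follow *Zeb2*, a repressor of epithelial genes, the bin nearest to the gene was in A at 0.413, 0.233 and 0.0656, the fifth in B at -0.650, -0.684 and -0.507, and the farthest in B nearer to 0, at -0.209, -0.205 and -0.0697.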

How the data were processed

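C2C12 Hi-C libraries (6 libraries, 2 biological replicates in each of 3 conditions) had been mapped with Bowtie and filtered in HiCUP by the authors, then pooled over replicates and normalised in HOMER. The deposited value of each pair of 500 kb bins is a score, the Pearson correlation coefficient of their normalised interaction profiles. Bins with a diagonal above 0.5 had data. The values were used as deposited. Columns of other samples numbered 0. Depth per bin is not given by the files, and no p-value or SD between replicates could be had.

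PC1 was computed per autosome and condition from the within-chromosome block (columns centred), signed by start sites (GENCODE vM21, mm10) and divided by its SD over window bins (0.864, 1.60 and 1.35). Sequence features came from GRCm38.p6. Shares carry exact Clopper-Pearson 95% intervals for counting error. Python 3.11.15, NumPy 2.4.6, SciPy 1.17.1, pandas and Matplotlib 3.10.9 were used, and components and profile correlations were tested on simulated data. Named deserts are the longest runs, the extremes of scaled PC1, its changes and profile correlation, the highest desert pairs, and the members of 3 gene lists. The deserts, lists and rules were chosen with earlier results of these data known. Alternatives covered membership, sign, centring, source and scaling of the component, thresholds, partners and chromosomes. Some members of the developmental list are counted but not reported by name.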

Additional observations from a re-analysis of the deposited data

How the results depend on the processing

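Of 115 recomputed values 80 kept their direction and stayed within 1.5 times the value given (shares within its exact interval), 33 moved further and 2 changed sign. Setting the sign of PC1 by GC content changed none of these shares or counts. The share of deserts in B was 90.2%, 91.9% and 91.0% (myoblasts, myotubes, AraC-treated myotubes) with columns not centred, 90.9%, 91.5% and 91.8% above the 20th percentile of absolute PC1, 88.6%, 90.5% and 91.1% with start sites of all transcripts, and 88.8%, 90.6% and 91.4% without gene bodies. It was 89.6% in myoblasts with a component from other autosomes. Above the 20th percentile, changes from A to B numbered 1, 0 and 0 (myoblasts to myotubes, myoblasts to AraC-treated myotubes, myotubes to AraC-treated myotubes) and from B to A 0, 4 and 0, the bins left out being those nearest to 0, where signs change. With a component from other autosomes, A to B numbered 24 and 13 in the last 2 pairs and B to A 14 in the first. Uncentred columns gave 11 from A to B in the last pair. Without gene bodies, B to A numbered 5, 10 and 9 and A to B 15 in the last pair. Profile correlations below 0.2 numbered 26 and 61 in the first 2 pairs. The median change, near 0 when scaled, was -0.455, -0.290 (a change of sign) and 0.164 with PC1 not scaled, 0.00129 (a change of sign) in the first pair when scaled by its own chromosome (chosen after seeing the data), and 0.0226 and 0.0143 in the last 2 pairs without gene bodies. The cause of these shifts was not tested. No paired analysis was possible because replicates were pooled before deposit and the columns carry no replicate numbers. For the same reason no replicate could be left out.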

Other observations

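The 162 bins without a start site that lay near chromosome ends, 95 at the start and 67 at the end, were in B at 84.6% in myoblasts, 88.3% in myotubes and 87.7% after AraC. Their median scaled PC1 was -0.569, -0.617 and -0.604. A run of 5 deserts between *Gje1* and *Cited2*, a transcriptional co-regulator, was in A over all its bins in each condition. Its scaled PC1 was 0.911 to 1.60 in myoblasts, 0.869 to 1.43 in myotubes and 1.16 to 1.47 after AraC. This run was picked after its values were seen.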
